A study of Sus scrofa with 4 samples.

Results

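The hedgehog pathway genes described here are SHH, PTCH1, SMO, GAS1, GLI1, GLI2, GLI3, HHIP and SUFU, chosen by name as the ligand, the receptors, a co-receptor, the GLI transcription factors and the inhibitors of the pathway. All 9 were found among the 29837 named genes of the count table, and all 9 passed the filter on low counts that left 15980 genes for testing. RNA was sequenced from epidermal cells of 2 juvenile pigs, 88R and 95R, sorted by fluorescence into an LGR5-GFP+ population of bright cells (LGR5-high) and an LGR5-GFP- population (LGR5-negative), with 1 library of each population from each pig. Both populations came from pigs in which a histone H2B-GFP fusion had been knocked into a single LGR5 allele by CRISPR/Cas9, so that all 4 libraries share this genotype and no wild-type pig is included. The edited pigs came from clonal cell lines by nuclear transfer, the study also used their progeny, and which of these 88R and 95R were is not given in the sources used here. LGR5 is a receptor for R-spondins that strengthens WNT signaling and marks hair follicle stem cells, and the GFP-dim cells were not part of the sequencing. The reporter is driven by the LGR5 locus, and a histone fusion can persist for a time in cells that have turned LGR5 off.

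Hedgehog signaling passes from a secreted ligand to a receiving cell through its primary cilium. Without ligand, the receptor Patched (PTCH1) keeps Smoothened (SMO) inactive, GLI2 and GLI3 are held by SUFU, and GLI3 in particular is processed into a repressor. Ligand binding releases SMO, GLI activators enter the nucleus, and GLI1, PTCH1 and HHIP are themselves induced, so their transcripts are widely used as a readout of the pathway. In skin, Sonic hedgehog from the follicle epithelium is required for hair follicle growth and for the start of a new hair cycle, and lasting activity of the pathway drives basal cell carcinoma.

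The libraries held between 30696803 and 32463362 counts on named genes, and TMM factors, which set the libraries to a common scale, lay between 0.919 and 1.08. LGR5, whose reporter defined the sort so that its difference is no finding, followed the labels, with 4551 and 6224 counts in LGR5-high against 36 and 109 in LGR5-negative (pigs 88R and 95R, as in all pairs of values). The keratinocyte gene KRT5 had between 789559 and 842315 counts per library. Of the 10 follicle stem cell markers examined, LGR5 among them, 8 were higher and 0 lower in LGR5-high, beside 22.7% higher and 22% lower of all tested genes. The markers of differentiated epidermis summed to between 5495 and 6057 CPM in LGR5-high against between 56334 and 65602 CPM in LGR5-negative. CPM is a count scaled to the TMM-corrected size of its library. It does not correct for transcript length, so CPM values are compared between libraries and not between genes.

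All 9 hedgehog genes were higher in LGR5-high than in LGR5-negative by edgeR's quasi-likelihood test (Benjamini-Hochberg adjusted p below 0.05), against 22.7% of all tested genes. That none was lower (0 of 9), against 22% of all tested genes, follows from these calls and is no separate result. The same holds at an unadjusted p below 0.05 and with DESeq2 or limma-voom, where all 9 were also higher. The p-values rest on the spread between the libraries of 2 pigs within each population, an estimate that draws in part on all genes. The test does not pair the 2 populations of a pig. For each gene the lowest LGR5-high library lay above the highest LGR5-negative library, and the direction was the same in both pigs. The share of all tested genes separated in this way was not counted, so the separation is not read as a result about the 9. The other tested pathway genes also kept 1 direction in both pigs, 29 higher and 15 lower, so such agreement is not particular to the 9. The members' log2 fold changes ran from 0.34 for SUFU to 6.63 for SHH with a median of 2.15, beside a median of 0.02 over all tested genes. Differences were largest for SHH, GLI1, GLI2 and HHIP, intermediate for SMO and PTCH1, and below 2-fold for GLI3, GAS1 and SUFU. These groups are for description only, as some steps within them were larger than those between them. Since these are bulk samples, a larger share of cells with a transcript and more transcript per cell cannot be told apart. All 9 were also higher with DESeq2 (20.8% of all genes), limma-voom (22.9%), DESeq2 size factors (22.5%), upper quartile scaling (26.9%), library size only (34.2%), all genes with at least 1 count (15.3%) and the replicate block (28.5%). With at least 10 counts in every library (21.9%), SHH could not be tested and the other 8 were higher, and the test named in the study's methods, run on log2 CPM (3.4%), called 3. Called lower were 21.2% of all genes with DESeq2, 22.1% with limma-voom, 14.6% with library size only and 3.14% with the test of the study's methods. Without LGR5-negative of pig 88R, 18.3% of all genes were higher and 17.8% lower, and without that of pig 95R, 19.1% and 18.1%.

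**Figure D1:**
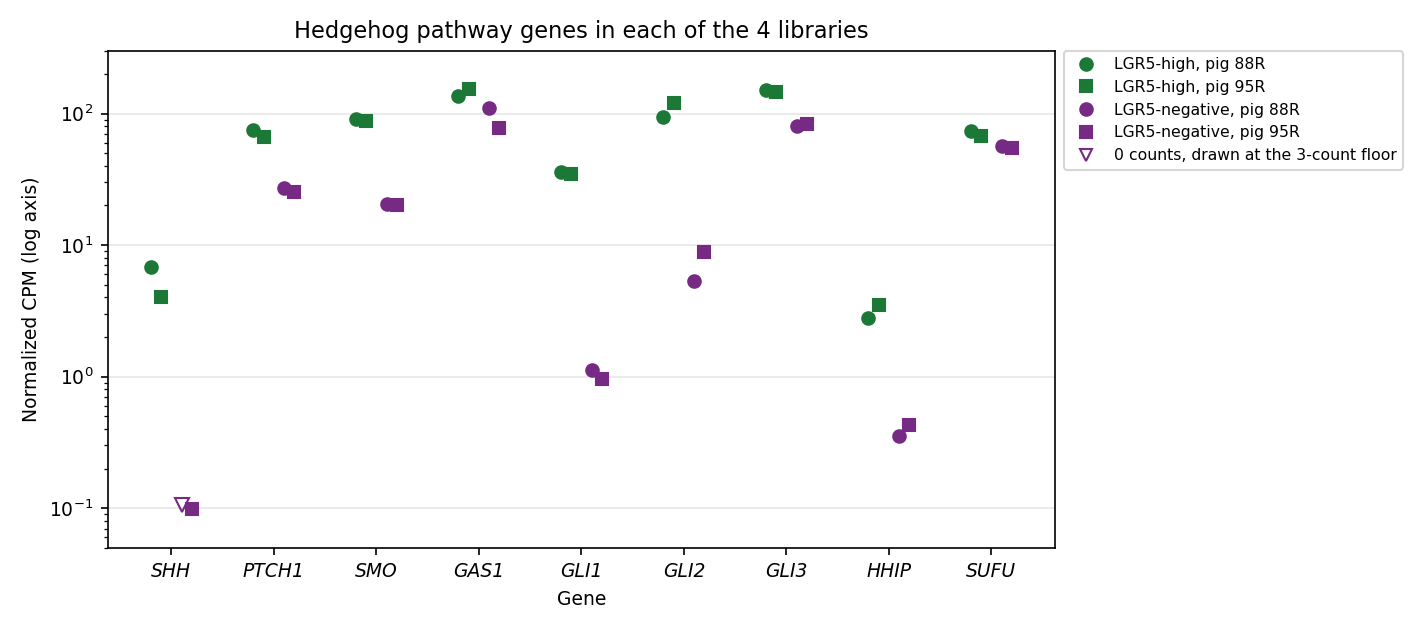
Normalized CPM (log axis) of the 9 hedgehog genes, with 1 point per library, colored by population and shaped by pig. LGR5-high points lie above LGR5-negative points for every gene, with SHH at 0 and 3 counts in LGR5-negative, and heights of different genes are not comparable because CPM is not corrected for transcript length.

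SHH, which encodes the Sonic hedgehog ligand, was at the edge of detection in LGR5-negative. It had 233 counts in LGR5-high of pig 88R and 134 in that of pig 95R, against 0 and 3 in LGR5-negative. In CPM this was 6.78 and 4.06 in LGR5-high, while 3 counts, the floor used here, correspond to 0.105 CPM in LGR5-negative of pig 88R and 0.0993 CPM in that of pig 95R. Nearly all reads of the ligand were thus found in the LGR5-high cells, and within LGR5-high the CPM differed between the pigs by a larger factor than that of any other member. In pig 88R, SHH was at least 64.4-fold higher in LGR5-high, computed against the floor of that library. In pig 95R the ratio was 40.9, with a 95% counting interval of 13.7 to 201. The fitted log2 fold change of 6.63 ± 0.72 (SE, edgeR adjusted p = 0.00116) rests on only 3 counts in LGR5-negative. It was 10.44 without the LGR5-negative library of pig 95R, which leaves 0 counts in that population, so that this value depends on the prior count. Without the LGR5-negative library of pig 88R it was 5.71.

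PTCH1, the receptor that binds the ligand and restrains SMO, had 75.4 and 66.1 CPM in LGR5-high against 27.0 and 25.2 CPM in LGR5-negative. The populations were separate and the pigs close to each other in both. Its log2 fold change was 1.44 ± 0.11 (SE, edgeR adjusted p = 3.37e-04), with 1.48 for pig 88R and 1.39 for pig 95R. SMO, the membrane protein that carries the signal onward, had 91.3 and 87.6 CPM in LGR5-high against 20.4 and 20.1 CPM in LGR5-negative. This was the most even pattern of the 9 genes in LGR5-negative, with a mean of 20.2 ± 0.212 CPM (SD, n = 2 pigs). The log2 fold change of SMO was 2.15 ± 0.09 (SE, edgeR adjusted p = 6.71e-05), so the difference was larger for SMO than for PTCH1, by 0.71 on the log2 scale.

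GAS1, a membrane-anchored co-receptor that helps present the ligand to PTCH1, differed in size of effect between the pigs. It had 135 and 153 CPM in LGR5-high against 111 and 78.2 CPM in LGR5-negative. The pig with the lower value in LGR5-high had the higher value in LGR5-negative, so that the log2 fold change was 0.29 for pig 88R and 0.97 for pig 95R. Over both pigs it was 0.61 ± 0.17 (SE, edgeR adjusted p = 0.0342). The call was lost without either LGR5-high library (adjusted p = 0.0742 without pig 88R and 0.153 without pig 95R) and without the LGR5-negative library of pig 95R, where the log2 fold change was 0.37 (adjusted p = 0.0652).

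Among the transcription factors, the difference was widest for GLI1, intermediate for GLI2 and narrowest for GLI3. GLI1, an activator that is also a transcriptional target of the pathway, had 1236 and 1142 counts in LGR5-high against 32 and 29 in LGR5-negative. In CPM the means were 35.3 ± 0.979 and 1.04 ± 0.115 (SD, n = 2 pigs), a 33.8-fold difference. Its log2 fold change of 5.08 ± 0.16 (SE, edgeR adjusted p = 4.50e-05) ranked 195 from the top of the 15980 tested genes. GLI2, the main activator downstream of SMO, had 93.9 and 119 CPM in LGR5-high against 5.37 and 8.84 CPM in LGR5-negative. Pig 95R was higher in both populations, and the log2 fold change was 4.11 for pig 88R and 3.75 for pig 95R. Over both it was 3.90 ± 0.26 (SE, edgeR adjusted p = 2.30e-04), which is 15.0-fold. GLI3, the main source of the GLI repressor, was well detected in both populations, with 150 and 145 CPM in LGR5-high against 79.9 and 83.2 CPM in LGR5-negative. Its log2 fold change was 0.85 ± 0.08 (SE, edgeR adjusted p = 5.80e-04), or 1.81-fold.

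The inhibitors differed from each other in the same way. HHIP, a membrane protein that binds and sequesters the ligand and is induced by the pathway, had few reads, with 96 and 116 counts in LGR5-high against 10 and 13 in LGR5-negative. All counts of both LGR5-negative libraries were above the floor of 3, and the population means were 3.15 ± 0.508 and 0.391 ± 0.0561 CPM (SD, n = 2 pigs). HHIP was 7.98-fold higher (edgeR adjusted p = 0.00126, SE 0.33 on the log2 scale), with a log2 fold change of 2.79 for pig 88R and 2.86 for pig 95R. SUFU, the cytoplasmic protein that holds the GLI factors, had 73.2 and 67.3 CPM in LGR5-high against 56.6 and 54.3 CPM in LGR5-negative. Its difference was the narrowest of the 9 genes, with a log2 fold change of 0.34 ± 0.09 (SE, edgeR adjusted p = 0.0251). SUFU lost its call when any 1 of the 4 libraries was left out, with a log2 fold change between 0.27 and 0.41 and an adjusted p-value between 0.0544 and 0.134. When libraries were scaled by their size alone, which raised the median of all tested genes to 0.24, the log2 fold change of SUFU was 0.57.

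**Figure D2:**
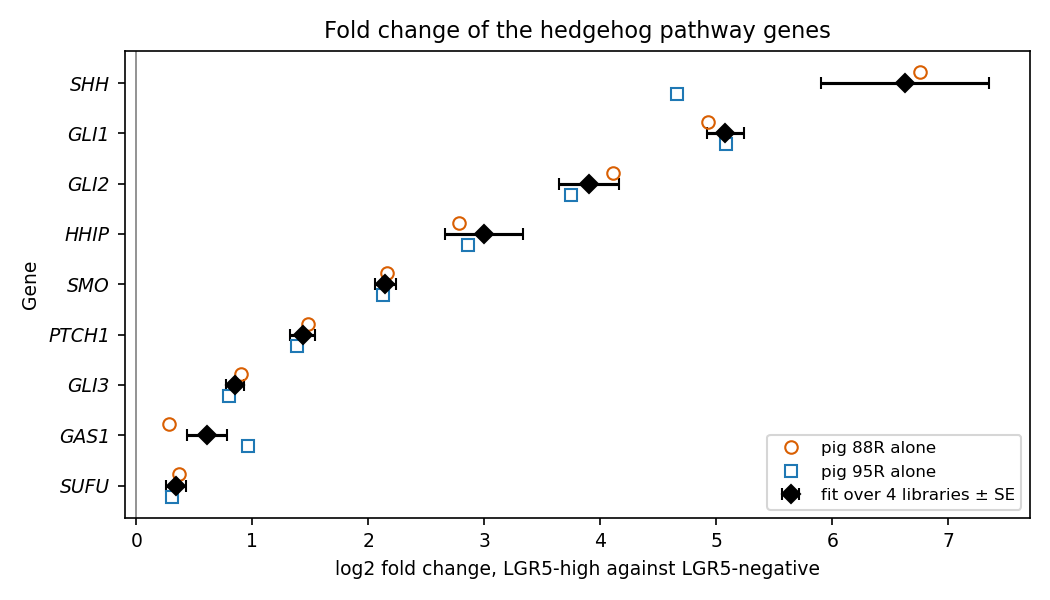
The log2 fold change of each hedgehog gene between LGR5-high and LGR5-negative (horizontal axis), with black diamonds for the fit over 4 libraries, bars for its standard error, and open symbols for each pig alone, estimated with a larger prior count. The pigs lie close together for SMO and GLI3, and apart for SHH and for GAS1, with 0.29 for pig 88R and 0.97 for pig 95R.

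In the order SHH, GLI1, GLI2, HHIP, SMO, PTCH1, GLI3, GAS1, SUFU of the log2 fold changes, not all neighbours were separated by more than their errors. The steps from GLI3 to GAS1 (0.25, standard error of the difference 0.19) and from GAS1 to SUFU (0.27, standard error 0.19) were smaller than 1.5 standard errors. The steps from SHH to GLI1, from GLI2 to HHIP and from HHIP to SMO were between 2.10 and 2.46 standard errors, and the steps from GLI1 to GLI2, from SMO to PTCH1 and from PTCH1 to GLI3 between 3.88 and 5.09. These standard errors treat the genes as independent, which genes of the same libraries are not, and no test was attached to the order.

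**Figure D3:**
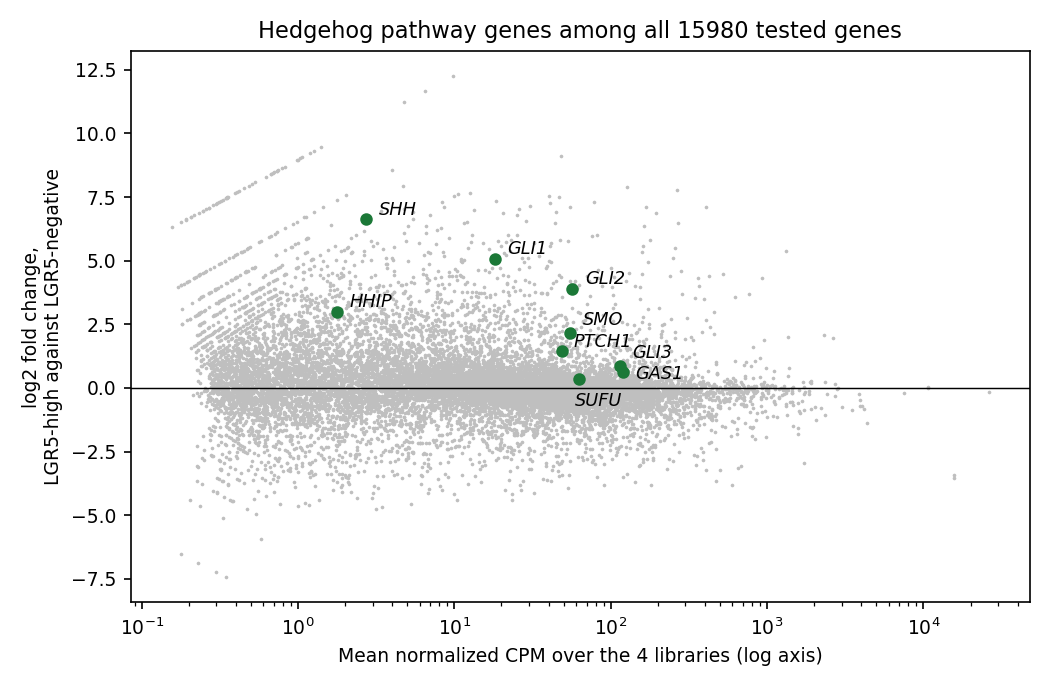
The log2 fold change of all 15980 tested genes (gray) against their mean normalized CPM (log axis), with the 9 hedgehog genes in green. The members span low means (HHIP and SHH) and higher ones (GLI3 and GAS1), and all 9 lie above 0.

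Because the gene lengths cancel when a ratio of 2 genes is compared between libraries, the balance within the pathway can be followed through such ratios of counts, which were chosen after the values had been seen. Each pair has the gene with the larger fold change as numerator, so the direction of the ratios follows from that choice. The size of a change restates the difference between the log2 fold changes of the 2 genes, given here for each pig. The ratio of GLI1 to GLI3 was 0.240 and 0.239 in LGR5-high of pigs 88R and 95R, against 0.0141 and 0.0115 in LGR5-negative. The LGR5-high libraries lay close together, and the ratio was 17.1-fold higher in LGR5-high in pig 88R and 20.7-fold in pig 95R. GLI2 to GLI3 went from 0.0672 and 0.106 in LGR5-negative to 0.627 and 0.823 in LGR5-high. Both activator genes thus had more counts relative to GLI3 in LGR5-high than in LGR5-negative, and the processing of GLI3 protein into its repressor form was not measured. The ratio of SMO to SUFU was 1.25 and 1.30 in LGR5-high, which was 3.47-fold higher than in LGR5-negative in pig 88R and 3.52-fold in pig 95R. SMO to PTCH1 was 1.21 and 1.33 in LGR5-high and 0.753 and 0.794 in LGR5-negative, a 1.61-fold and 1.67-fold difference. PTCH1 to GAS1 differed between the pigs, 2.29-fold in pig 88R and 1.34-fold in pig 95R.

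**Figure D4:**
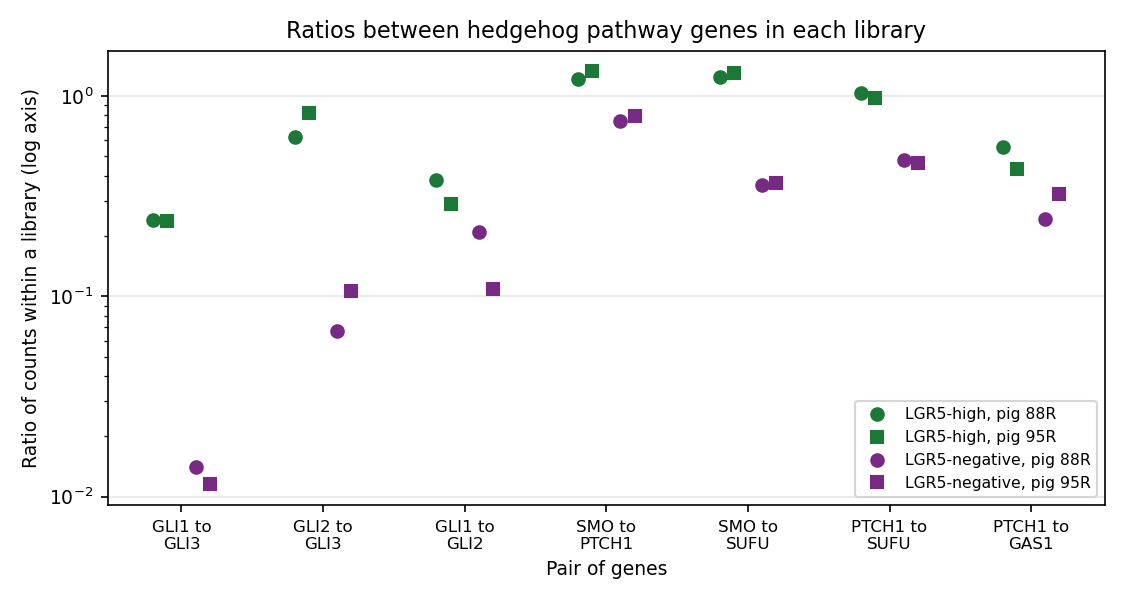
Ratios of counts between pairs of hedgehog pathway genes within each library (log axis), colored by population and shaped by pig. Each pair has the gene with the larger fold change as numerator, so that all 7 ratios are higher in LGR5-high follows from this choice. GLI1 to GLI3 differs most, and only the change of a ratio between libraries, not its height, can be read.

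The other genes of the pathway were examined as lists of 47 genes by role. Of these, 46 were in the count table, MOSMO was not analysed here, and 44 passed the filter. By the same edgeR test 21 of them were higher in LGR5-high, 8 were lower and 15 were not called, beside 22.7% higher and 22% lower of all tested genes. Their median log2 fold change was 0.34. Differences in the following are on the log2 scale. Without the LGR5-high library of pig 88R, 13 were higher and 6 lower, and without that of pig 95R, 11 and 5. The share of all genes called is then also smaller, at 14.2% higher and 14.8% lower without pig 88R, and 13.9% and 13% without pig 95R.

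Among the genes for making and releasing the ligand, 4 of 6 tested were higher and 0 lower (22.7% and 22% of all tested genes). All 6 fitted log2 fold changes were above 0. The lists held IHH, with 0 counts in all 4 libraries, which allows up to 0.105 CPM in the library with the highest floor, and DHH, with between 1 and 5 counts. SHH was therefore the hedgehog ligand with the most counts in LGR5-high. HHAT, the acyltransferase that attaches palmitate to hedgehog ligands, had 253 and 209 counts in LGR5-high against 78 and 88 in LGR5-negative, and a log2 fold change of 1.28 (standard error 0.21). The SCUBE proteins help lipid-modified ligand leave the cell. SCUBE2 had 132 and 110 counts against 14 and 19 (log2 fold change 2.67), SCUBE3 had 1094 and 657 against 145 and 90 (2.68) and SCUBE1 had 151 and 152 against 51 and 63 (1.21), whose call was lost without the LGR5-high library of pig 95R. DISP2, with 14 and 24 counts against 7 and 1, was not called, and was higher with the pig as a replicate block (edgeR adjusted p = 0.0238). DISP1, the transporter that exports the ligand, was not called, with 11.5 ± 1.37 CPM in LGR5-high against 10.5 ± 0.0966 CPM in LGR5-negative (SD, n = 2 pigs).

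The other receptor and co-receptor genes moved in both directions, with 2 of 4 higher and 2 lower (22.7% and 22% of all tested genes). The co-receptor genes BOC and CDON, which encode related membrane proteins that bind the ligand, went opposite ways. BOC had 138 and 188 CPM in LGR5-high against 67.5 and 85.0 CPM in LGR5-negative, and CDON had 47.4 and 39.9 CPM in LGR5-high against 155 and 192 CPM in LGR5-negative. The log2 fold change was 1.09 ± 0.18 (SE) for BOC and -1.99 ± 0.14 (SE, edgeR adjusted p = 2.89e-04) for CDON. GPC3, a glypican that competes with PTCH1 for the ligand, was lower in LGR5-high with a log2 fold change of -1.07, and lost its call without the LGR5-high library of pig 88R. LRP2, a large endocytic receptor that can bind the ligand, was higher from low counts, with 51 and 69 against 11 and 12, and lost its call without the LGR5-high library of pig 95R. With GAS1, the receptor and co-receptor genes of this list thus divided into GAS1, BOC and LRP2, which were higher, and CDON and GPC3, which were lower.

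The genes acting at the cilium and on SMO mostly differed by less than 2-fold. Of 13 tested, 5 were higher and 1 lower (22.7% and 22% of all tested genes). The replicate block gave 7 higher and 3 lower of the 13, beside 28.5% higher and 27.2% lower of all genes in that setting. The exception in size was ARRB1, which encodes a beta-arrestin, with 65.4 and 54.7 CPM in LGR5-high against 245 and 180 CPM in LGR5-negative (log2 fold change -1.82, standard error 0.17). Its paralog ARRB2 was higher by 0.52. GPR161, a ciliary receptor that restrains the pathway, was higher by 0.87, KIF3A, a motor subunit that builds the cilium, by 0.58, MGRN1, a ubiquitin ligase that removes SMO from the membrane, by 0.55, and EFCAB7, which anchors the EVC complex, by 0.51 (edgeR adjusted p = 0.0497). Of these, ARRB2, GPR161, KIF3A and EFCAB7 lost their call without either LGR5-high library, and MGRN1 without that of pig 95R. KIF3A also lost it without the LGR5-negative library of pig 95R, and EFCAB7 without either LGR5-negative library. EFCAB7 was also not called with DESeq2 (adjusted p = 0.0973), with DESeq2 size factors in edgeR or with all genes with at least 1 count (edgeR adjusted p = 0.0676). KIF7, the ciliary kinesin that regulates the GLI factors, was at 0.27 and not called, and with the replicate block KIF7 and IQCE were higher and EVC2 and TULP3 lower. EVC, IFT88 and GRK2 were not called, with log2 fold changes between -0.22 and 0.22.

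Among the genes that process the GLI proteins, 5 of 12 were higher and 3 lower (22.7% and 22% of all tested genes). KCTD11, an adaptor of a ubiquitin ligase that limits the pathway, had the largest change, with 34.3 and 35.7 CPM in LGR5-high against 13.8 and 13.2 CPM in LGR5-negative (log2 fold change 1.37 ± 0.11, SE, edgeR adjusted p = 4.00e-04). Protein kinase A phosphorylates GLI proteins for processing. Its subunit genes PRKACA, PRKACB and PRKAR1A were higher by 0.46, 0.38 and 0.30, and DYRK2, a kinase that marks GLI2 for degradation, by 0.55. CSNK1A1, the casein kinase that acts after protein kinase A, was lower with a log2 fold change of -0.45, and BTRC and CUL3, parts of the ubiquitin ligases that process or degrade GLI proteins, with -0.39 and -0.33. DYRK2 lost its call without the LGR5-high library of pig 88R, CSNK1A1 without that of pig 95R, PRKACB without any 1 library but the LGR5-negative of pig 95R, PRKAR1A without any 1 of the 4, BTRC without any 1 but the LGR5-negative of pig 88R, and CUL3 without any 1 but the LGR5-high of pig 88R. BTRC was also not called with upper quartile scaling (edgeR adjusted p = 0.0561), and PRKAR1A with all genes with at least 1 count (edgeR adjusted p = 0.0536). CSNK1A1, BTRC and CUL3 were not called with library size only, where they were at -0.23, -0.17 and -0.11.

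Of 9 further genes described as GLI targets, 5 were higher and 2 lower (22.7% and 22% of all tested genes). FOXE1, a forkhead factor expressed in the hair follicle, had 2758 and 2617 counts in LGR5-high against 16 and 9 in LGR5-negative. This was the largest difference among the pathway genes with more than 3 counts in each library, a log2 fold change of 7.53 ± 0.21 (SE, edgeR adjusted p = 4.09e-05). SFRP1, a secreted WNT inhibitor, had 1217 and 1094 CPM in LGR5-high against 87.0 and 108 CPM in LGR5-negative, a log2 fold change of 3.57. MYCN, a MYC family factor that drives proliferation, was higher by 2.06, BCL2, which protects from apoptosis, by 0.97, and FOXM1, a factor of mitotic gene expression, by 0.89. FOXM1 lost its call without either LGR5-high library and without the LGR5-negative library of pig 95R. In contrast, the cyclin gene CCND1 was lower with a log2 fold change of -0.73, and CCND2 was not called, with 37.9 ± 3.93 CPM in LGR5-high against 40.3 ± 1.74 CPM in LGR5-negative (SD, n = 2 pigs). FOXF1, a target best known in mesenchyme, was lower, with 38 and 40 counts in LGR5-high against 188 and 193 in LGR5-negative (log2 fold change -2.48). The genes called GLI targets elsewhere therefore did not all go in the direction of GLI1, PTCH1 and HHIP. Their share of lower calls was near that of all tested genes, so it is no result about the targets.

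**Figure D5:**
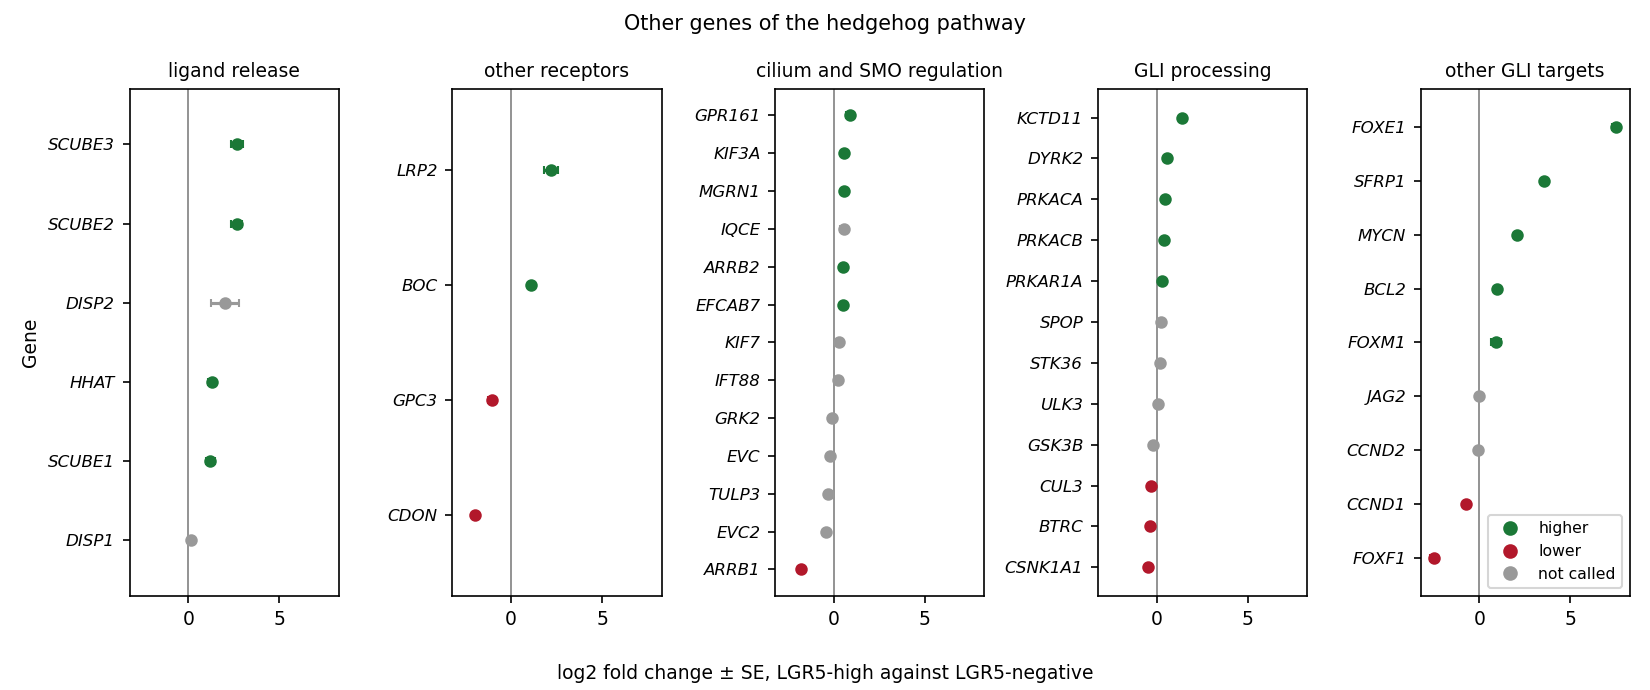
The log2 fold change with its standard error of the 44 other tested pathway genes, in 5 panels by role, with green for higher, red for lower and gray for genes not called at an adjusted p-value under 0.05. Ligand release genes lie at or above 0, the co-receptor gene CDON and the arrestin gene ARRB1 lie below -1.5, and most cilium and GLI processing genes lie within 1 of 0.

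Several hedgehog genes are also expressed by cells other than keratinocytes, chiefly fibroblasts and the dermal papilla, so markers of such cells are given beside these results. The 9 fibroblast markers summed to 752 and 1034 CPM in LGR5-high against 417 and 259 CPM in LGR5-negative. Of the 8 tested 3 were higher and 5 lower, beside 22.7% higher and 22% lower of all tested genes. The collagen genes COL1A2 and COL1A1 were 13.0-fold and 3.61-fold higher in LGR5-high and FBLN1 was 3.11-fold higher. Of those that were lower, DCN still had 83.4 and 112 CPM in LGR5-high, COL3A1 had 183 and 172 counts and DPT 43 and 29. PDGFRA had 4 and 3 counts in LGR5-high against 21 and 21 in LGR5-negative, and LUM had 5 and 0 against 47 and 31. Dermal papilla markers reached sums of at most 2.97 CPM for LGR5-high and 1.49 CPM for LGR5-negative, with SOX2 at 3 and 5 counts in LGR5-high and ALX4 at 1 and 0. Markers with lower sums in LGR5-high were those of immune cells (7.02 to 9.10 CPM summed over 6 genes, against 101 to 143), melanocytes (62.5 to 62.6 CPM over 7 genes, against 85.0 to 261) and endothelial cells (4.86 to 6.63 CPM over 5 genes, against 12.8 to 12.9). Merkel cell markers summed to between 8.44 and 8.54 CPM in LGR5-high against between 0.526 and 0.993 CPM in LGR5-negative, and CHGA made up almost all of it in LGR5-high, while ATOH1 had 3 and 21 counts against 0 and 2, and KRT20 had 10 and 8 against 8 and 12. Schwann cell markers summed to 7.21 and 13.1 CPM in LGR5-high against 0.877 and 2.91 CPM in LGR5-negative, mostly S100B, with CDH19 at 0 in all libraries. Smooth muscle markers summed to between 14.2 and 14.7 CPM against 3.97 to 5.26, and 3 of 4 tested were higher, CNN1 13.0-fold, ACTA2 4.22-fold and MYH11 1.88-fold, with DES at 0 and 2 counts in LGR5-high. Sebaceous markers summed to between 3.24 and 4.42 CPM against 0.526 to 1.39. In the hair matrix list, 3 of 7 tested genes were higher and 2 lower, beside the same 22.7% and 22% of all tested genes. On the log2 scale HOXC13 was higher by 1.77 and LEF1 by 0.62, DLX3 was lower with -0.75, and MSX2 was not called. The proliferation gene TOP2A was higher by 1.13 and MKI67 was at 1.06 and not called (edgeR adjusted p = 0.0504, and 1.61e-07 with the replicate block, which made 4 of 7 higher), and the hair keratin gene KRT35 was lower with -2.40. The part of these cells in the hedgehog results was not tested.

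For each hedgehog gene, the gene with the most similar pattern over the 4 libraries was found as that with the smallest root mean square difference of centered log2 CPM. With 4 libraries in 2 populations, such a match mostly reflects the size of the difference between the populations. The log2 CPM used a prior count of 2, which narrows the differences of genes with few counts. GLI2 was nearest to GLIS1, a related zinc finger factor, which had 58 and 70 counts in LGR5-high against 1 and 3 in LGR5-negative (root mean square difference 0.0141). In LGR5-negative GLIS1 was at or under the floor of 3 counts, so its closeness to GLI2 depends on that prior count. GLI3 was nearest to GNPTAB (0.00253), SUFU to RCCD1 (0.0039), SMO to LONRF2 (0.00673), PTCH1 to CNKSR3 (0.0182), GAS1 to LRRC26 (0.0286), HHIP to CHST12 (0.0324) and GLI1 to LIPH (0.0435). LIPH had 4 and 3 counts in LGR5-negative, so its match to GLI1 depends on the prior count as well. SHH had the least close match, the noncoding gene LOC106507343 (0.134), with 222 and 130 counts in LGR5-high against 0 and 4 in LGR5-negative.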

How the data were processed

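Libraries of poly(A) RNA were made from sorted cells. The authors deposited unnormalized counts for each gene symbol, and the submitters' processing notes list Trimmomatic 0.36, STAR 2.5.2b and featureCounts of Subread 1.5.2. The genome build and the strand setting are not given in the sources used here, so overlapping or antisense genes could not be told apart. Named genes held between 30696803 and 32463362 counts per library, and 1 entry without a name (0.36% to 0.626% of counts) was left out. All 29837 names matched a RefSeq symbol of Sscrofa11.1, used for names only, and no coordinates or sequences were used here.

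The counts were tested in R 4.3.3 by edgeR 4.0.16, after filterByExpr (minimum count 10, minimum total 15) and TMM scaling, with a 2-sided quasi-likelihood test of population alone. This replaces the t-test of the study's methods, which is not made for counts. P-values were adjusted by Benjamini-Hochberg over all 15980 genes, and genes under 0.05 were called. The filter keeps a gene that is high in a single population, and all 9 hedgehog genes met it. The prior count was 0.125 for fitted fold changes, and 2 for each pig alone and for the search for the most similar patterns. The floor of 3 counts per library and the 95% exact binomial intervals cover counting error only, and not the spread between pigs. Reads from PCR are not independent molecules, so the intervals may be too narrow even for counting error. The populations share their pigs, as the titles state, and libraries of a pig deviated together (correlation 0.370 over the tested genes), so the pig as a replicate block was an alternative. The others were other scalings and filters, DESeq2 1.42.0, limma-voom (limma 3.58.1), a t-test of log2 CPM (pseudocount 1), and leaving out each library. The code was tested on simulated data. Plots used matplotlib 3.10.9.

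The hedgehog genes and the other lists were chosen with earlier results of these data known. The text names all 9 hedgehog genes, every called gene of the other pathway lists, and for each hedgehog gene the tested gene of most similar pattern. Uncalled pathway genes and single markers named beside them were chosen after their values were seen. KRT14 and KRT85 were not analysed here, and 3 genes of the other pathway lists are not reported here and were left out of the counts of those lists.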

Additional observations from a re-analysis of the deposited data

How the results depend on the processing

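The log2 fold changes of the 9 hedgehog genes kept their direction under the 13 alternatives, except that SHH could not be fitted with at least 10 counts in every library. Of the 116 values, 103 stayed on their side of the threshold and 13 lost their call. The 9 genes remained called with each other scaling, with all genes with at least 1 count, with DESeq2, with limma-voom and with the pig as a replicate block (9 higher), and the block changed no call among them. Student's t-test on log2 CPM, under which SMO, GLI1 and GLI3 were called, gave 3 higher hedgehog genes, 3 higher and 1 lower of the other pathway genes, and 544 higher and 502 lower of all genes, against 9, 21, 8, 3632 and 3508 by edgeR with TMM. Scaling by library size only gave 5473 higher and 2326 lower of all genes and 5 lower of the other pathway genes, with the median of all genes at 0.24 in place of 0.02, and 9 hedgehog genes were higher. Leaving out 1 library left between 7 and 8 hedgehog genes, between 11 and 19 higher and between 5 and 8 lower of the other pathway genes, and between 2279 and 3169 higher and between 2139 and 3004 lower of all genes. For these fits the lone library of a population is assumed to vary like the other. With the replicate block 24 of the other pathway genes were higher and 10 lower.

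SHH in LGR5-negative and HHIP rest on few counts, which limits the precision of their fold changes. Whether the 2 pigs differ in a fold change was not tested.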
